A study of Rattus norvegicus with 24 samples.

Results

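Of the 26404 gene IDs counted in rat liver, 121 met a rule on abundance, fold and separation from vehicle. The rule asked for at most 0.5 times the vehicle level at both of the highest doses, 3 and 10 µg/kg, of the dioxin TCDD (2,3,7,8-tetrachlorodibenzo-p-dioxin). The 121 IDs were chosen by their levels in the vehicle, 3 and 10 µg/kg libraries. The unit throughout is CPM, the count of an ID per 1000000 gene counts of its library. An ID was a member if its vehicle mean was from 5 to below 1000 CPM, if both high-dose means were at most 50% of that mean, and if each library at 3 and 10 µg/kg lay below each vehicle library. The rats were females of the outbred Sprague-Dawley stock with an age label of 57 days, and whole-liver RNA was taken on day 28. All rats were gavaged every 4 days for 28 days, with sesame oil alone (vehicle) or with TCDD. The doses were 0.01, 0.03 and 0.1 µg/kg at the low end, 0.3 and 1 µg/kg in the middle, and 3 and 10 µg/kg at the top. There were 3 libraries in each of the 8 groups, described as biological replicates, and all groups shared stock, sex, age label, vehicle and duration.

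TCDD is a persistent chlorinated dioxin that binds the aryl hydrocarbon receptor, a ligand-activated transcription factor of the cytosol. The bound receptor enters the nucleus, pairs with its partner Arnt and induces genes of drug metabolism, among them the Cyp1 family. The liver of treated rodents is also known for lower levels of many transcripts of its ordinary metabolic work, a side of the response that is less direct and less well understood than induction. The series is about fatty acids and eicosanoids of the liver, and its dose range lets one ask from which dose on a transcript changes.

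No gene name, position, promoter or function can be given for these IDs. The count tables hold Ensembl IDs only, and 0 of the 26404 IDs matched the 47357 rows of the RefSeq gene table (assembly GRCr8) or the 33469 rows of the promoter table, so no sequence is shown. For the same reason neither the pathway and cell type lists nor the check of the liver label against its markers could be applied. Members are described by their levels, with 2 named by ID. In whole-liver RNA, fewer cells of a type and less RNA per cell cannot be told apart.

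The choice narrowed in steps. Of the 8004 IDs in the vehicle range, 258 had a mean at 3 µg/kg of at most 0.5 times vehicle and 329 had such a mean at 10 µg/kg. Both held for 156 IDs, while 102 met the fold at 3 but not at 10 µg/kg. A further 34 were left out because libraries overlapped, which gave 122, and the rule leaves out 1 named ID. At 3 µg/kg the members nearest the fold limit stood at 49.8%, 49.6% and 49.1% of vehicle, and the nearest IDs outside it at 50.02%, 50.3% and 50.5%. At 10 µg/kg these values were 49.9%, 49.7% and 49.7% inside and 50.3%, 50.6% and 50.7% outside. The lowest vehicle means inside were 5.37, 5.42 and 5.63 CPM, and those just under the limit 4.86, 4.77 and 4.75 CPM. At the upper limit the highest members were at 843, 842 and 742 CPM, and the next IDs outside, the lowest of 10, at 1358, 1399 and 1554 CPM. The 9 libraries of vehicle, 3 and 10 µg/kg thus chose the members, and what they show about these groups is a description without a test.

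The members were of middling abundance in vehicle livers. Their vehicle means ran from 5.37 to 843 CPM with a median of 39.4 CPM, against a median of 20.7 CPM for the other 7883 IDs of the range. Under 10 CPM lay 17 members, from 10 to below 100 CPM 69, and at 100 CPM or more 35. Together the members took 1.34%, 1.30% and 1.33% of the gene counts in the 3 vehicle libraries. At 0.01 µg/kg the 3 libraries held 1.12%, 1.17% and 1.14%, the next dose 1.14%, 1.01% and 1.03%, and 0.1 µg/kg 0.964%, 1.08% and 1.12%. Every library of these 3 doses was below every vehicle library, and 0.03 µg/kg overlapped both of its neighbours. The shares were 0.858%, 1.03% and 1.06% for 0.3 µg/kg, 0.822%, 0.648% and 0.714% for 1 µg/kg, 0.468%, 0.406% and 0.466% for 3 µg/kg, and 0.300%, 0.376% and 0.299% for the highest dose. The groups of 0.3 and 0.1 µg/kg overlapped, while 0.3, 1, 3 and 10 µg/kg did not overlap each other, each lying below the one before it. Gene counts per library ranged from 11816273 to 15804887.

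**Figure D1:**
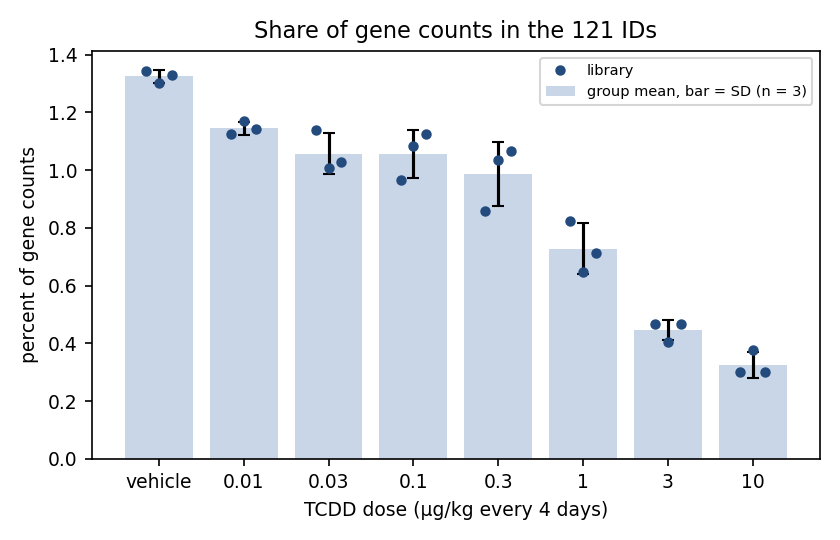
Percent of all gene counts that fell in the 121 IDs (y axis, from 0) for vehicle and the 7 TCDD doses in µg/kg (x axis). Points are libraries, bars are group means and error bars the SD (n = 3). The mean goes from 1.32% in vehicle to 0.986% at 0.3 and 0.325% at 10 µg/kg. Vehicle, 3 and 10 µg/kg chose the IDs.

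The level of a typical member went down slowly over the lower doses and most steeply between 1 and 3 µg/kg. As a share of the vehicle mean, the median member stood at 85.0% for 0.01, 78.3% for 0.03, 80.1% for 0.1, 71.5% for 0.3 and 59.1% for 1 µg/kg. At 3 and 10 µg/kg, where the rule set the upper limit, it stood at 34.7% and 29.4%. The medians of the other 7883 IDs were 103%, 103%, 99.96%, 102%, 96.9%, 95.9% and 105% at the same doses. On the log2 scale of the fit to all 24 libraries, the median fold change of the members against vehicle was -0.29 at 0.01, -0.40 at 0.03, -0.35 at 0.1, -0.56 at 0.3, -0.76 at 1, -1.52 at 3 and -1.95 at 10 µg/kg. All these values share the vehicle libraries that chose the members.

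Counted by member, 90 of the 121 had a mean above 50% of vehicle at 1 µg/kg and at or below it only from 3 µg/kg on. Another 20 were at or below 50% from 1 µg/kg on, 8 from 0.3, 2 from 0.1 and 1 from 0.01 µg/kg. At single doses, 8 members were at most 50% of vehicle at 0.01 µg/kg, where 0.612% of the 8004 IDs were. The counts were 14 for 0.03 µg/kg (1.02% of the 8004 IDs), 11 for 0.1 (0.625%), 18 for 0.3 (0.637%) and 31 for 1 µg/kg (0.775%). The shares of all IDs at 3 and 10 µg/kg were 3.22% and 4.11%, and there all 121 members met the limit by choice. The counts at the lower doses are a description too, since each share uses the vehicle mean that chose the members.

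**Figure D2:**
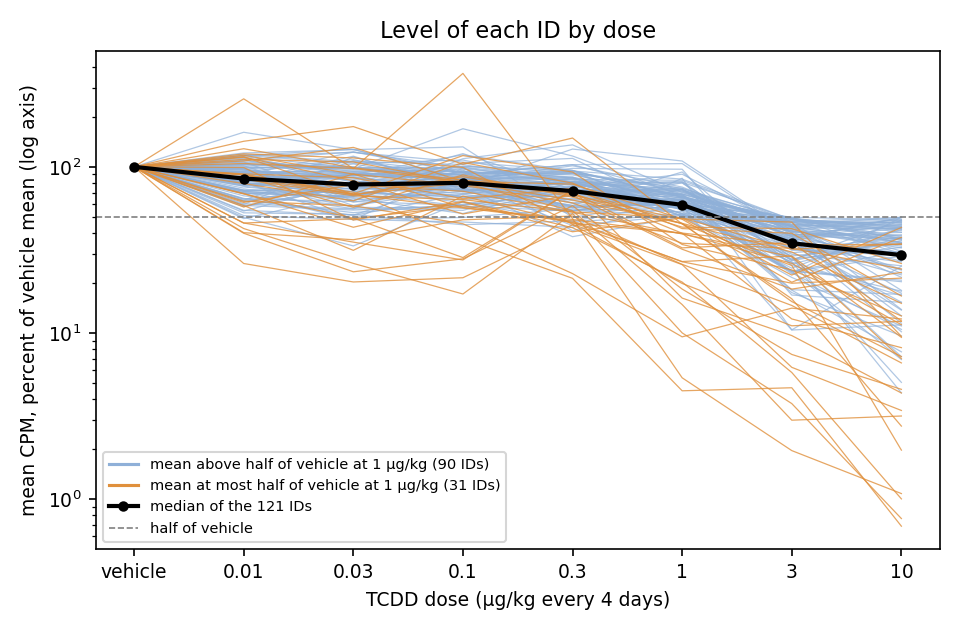
Group mean of each of the 121 IDs as a percent of its vehicle mean (y axis, log scale) by TCDD dose in µg/kg (x axis). Orange lines are the 31 IDs at most 50% of vehicle at 1 µg/kg, blue lines the other 90, and the black line the median, which goes from 85.0% at the lowest dose to 59.1% at 1 and 29.4% at 10 µg/kg. The dashed line marks 50%.

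Separation of the libraries from vehicle was similar from 0.03 to 0.3 µg/kg and held for more members at 1 µg/kg. The vehicle libraries chose the members, so these counts are a description too. Each library lay below each vehicle library for 18 members at 0.01 µg/kg (3.71% of the 8004 IDs), 30 at 0.03 (3.36%), 26 at 0.1 (6.81%), 29 at 0.3 (4.75%) and 67 at 1 µg/kg (12.4%). At 0.01 µg/kg each library lay above vehicle for 1 member (6.26% of the 8004 IDs). At 3 and 10 µg/kg, lying below vehicle was a condition of the choice, met by 17.3% and 16.4% of the 8004 IDs. From 3 µg/kg on but not from a lower dose, 54 members were clear of vehicle, and 43 were so from 1 µg/kg on. These counts were made for the members only, so no share of the 8004 IDs stands beside them. The vehicle mean was the highest of the 8 group means for 78 members, so 43 had their highest mean at a TCDD dose.

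Step by step, the median member moved most from 1 to 3 µg/kg. From vehicle to 0.01 µg/kg it went to 85.0%, a larger step than any of the 3 that followed, and the vehicle libraries took part in the choice. From 0.01 to 0.03 µg/kg the median member was at 94.0% of the lower dose, with 3 members whose libraries all lay below those of the lower dose (1.97% of the 8004 IDs) and 3 above (3.55%). From 0.03 to 0.1 µg/kg it was at 96.6%, with 5 members below (6.5%) and 6 above (4.12%). From 0.1 to 0.3 µg/kg it was at 91.3%, with 7 below (2.81%) and 3 above (6.57%). In none of these 3 steps did more than 7 of the 121 members separate in 1 direction. From 0.3 to 1 µg/kg the median was 80.2% (94.0% over the 8004 IDs), with 23 members below (11.3%) and 0 above (2.52%). For 14 members the mean at 1 was at most 0.5 times that at 0.3 µg/kg, which was not counted over the 8004 IDs. From 1 to 3 µg/kg the median was 59.1% (99.4% over the 8004 IDs), with 64 below (7.31%) and 0 above (6.07%). Here the 3 µg/kg libraries took part in the choice. The mean was lower at the higher dose of this step for 117 members and higher for 4, again counted for the members only.

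Whether the fall had begun at the lower doses was tested in the 15 libraries from 0.01 to 1 µg/kg, which took no part in the choice. All 121 members passed the filter on low counts in these libraries. The slope of the log2 level on dose rank was below 0 for 97 members (80.2%), against 51.5% of the 12122 IDs tested, and for 121 of the 145 IDs (83.4%) of the same range that met the conditions at 10 but not at 3 µg/kg. The median slope was -0.09 per dose step in the members, against -0.0028 over all IDs (edgeR's quasi-likelihood fit). With Benjamini-Hochberg adjustment over all 12122 IDs, 13 members fell and 0 rose. That is 10.7% of the members, where 0.544% of all IDs tested and 0.662% of the 8004 IDs of the same vehicle range fell. Of all IDs, 1.25% rose. At an unadjusted p below 0.05, 44 members had a negative slope and 0 a positive one, and of all 12122 IDs 1007 and 1126 had. By DESeq2, 22 members and 208 IDs in all fell. The highest slope of a member was 0.19, and the smallest unadjusted p among the 24 members with a slope above 0 was 0.116. Without replicate 1 at 0.01 µg/kg, 8 members of 22 IDs in all fell, and without replicate 2 at 1 µg/kg 8 members of 14 IDs.

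**Figure D3:**
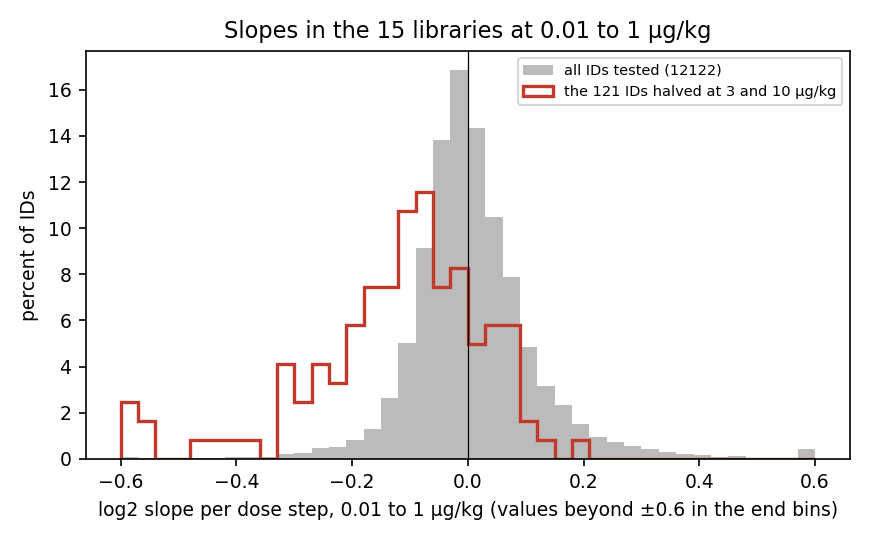
Distribution of the log2 slope per dose step in the 15 libraries at 0.01 to 1 µg/kg (x axis; values beyond the axis are in the end bins), as a percent of IDs (y axis), for all 12122 IDs tested (grey) and the 121 IDs (red outline). The red distribution lies to the left, with 97 of 121 slopes below 0.

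The 13 members that fell with dose had slopes from -0.56 to -0.15 log2 units per dose step, with a median of -0.25. They were chosen for a falling slope over these doses, so that higher values at 0.01 and lower ones at 1 µg/kg are part of that choice. At 0.01 µg/kg they stood at 91.6% to 161% of the vehicle mean, with a median of 115% and 10 of the 13 above it, and at 0.03 µg/kg at 76.8% to 127%, with 5 above it. The medians were then 84.1% at 0.1, 71.1% at 0.3, 55.3% at 1, 39.2% at 3 and 24.3% at 10 µg/kg. None of the 13 was above vehicle at 0.3 µg/kg or any higher dose. They were more abundant than the members without a call, with a median of 104 against 36.2 CPM in vehicle. The 108 members without a call had medians of 33.9% of vehicle at 3 and 29.8% at 10 µg/kg.

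The comparison of 1 µg/kg with the average of 0.01 and 0.03 µg/kg gave much the same picture. It came from the same 15 libraries as the trend and is therefore not an independent test. The median log2 fold change was -0.40 over the members and -0.01 over all IDs. The change was below 0 for 98 of 121 members (81.0%), against 50.9% of the 12122 IDs. Of the members, 14 were lower and 0 higher after adjustment (edgeR), where 0.421% of all IDs were lower and 1.46% higher. Their log2 fold changes ran from -2.11 to -0.64 with a median of -1.03, and for 7 the change was at least 2-fold. The trend had called 11 of the same 14. Without replicate 2 or without replicate 3 at 1 µg/kg, 4 members were lower, of 8 IDs in all. Without replicate 1 at 0.01 µg/kg the count was 8 members of 22 IDs. Of the 31 members at most 50% of vehicle at 1 µg/kg, 5 were among the 14. Counted by library, the 3 libraries at 1 µg/kg lay below all 6 at 0.01 and 0.03 µg/kg for 26 members, which held for 6.07% of the 8004 IDs. That count was 7 members at 0.3 µg/kg (1.54% of IDs) and 1 at 0.1 µg/kg (1.29%).

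Below 1 µg/kg edgeR called no single member in the 15 libraries after the low-count filter. At 0.3 µg/kg against 0.01 and 0.03 µg/kg, edgeR called 0 members (0.00825% of all IDs were lower and 0.115% higher), with 22 members lower and 2 higher at an unadjusted p below 0.05 (441 and 757 of all IDs). DESeq2 called 4 members of 22 IDs lower in all, and edgeR called 1 member with no low-count filter or with all 24 libraries in the fit. At 0.1 µg/kg edgeR and DESeq2 both called 0 members (by edgeR 0% of all IDs were lower and 0.033% higher), with 3 lower and 3 higher at an unadjusted p below 0.05 (309 and 524 of all IDs). The median log2 fold changes of the members were -0.17 at 0.3 and -0.08 at 0.1 µg/kg, against -0.01 over all IDs at both doses. Between neighbouring doses, a comparison added after the data were seen, 0 members were called at any of the 4 steps from 0.01 to 1 µg/kg by edgeR or DESeq2. By edgeR 0% of all IDs were lower at each of these steps, and at most 0.0412% higher, from 0.3 to 1 µg/kg. At an unadjusted p below 0.05, edgeR gave 21 members lower and 1 higher from 0.3 to 1 µg/kg, where 335 and 430 of the 12122 IDs were. From 0.1 to 0.3 µg/kg it gave 10 and 0 members (224 and 316 IDs), from 0.03 to 0.1 it gave 4 and 5 (306 and 428 IDs), and from 0.01 to 0.03 µg/kg 3 and 2 (197 and 223 IDs). The counts of the 2 lowest steps were near the share of all IDs.

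ENSRNOG00000019118, the member with the smallest p in the trend over 0.01 to 1 µg/kg, held its vehicle level through 0.1 µg/kg and was low from 0.3 µg/kg on. The 3 vehicle libraries held 32.2, 23.5 and 34.5 CPM, and those at 0.01 µg/kg 26.4, 37.8 and 43.8 CPM. The next dose had 42.7, 29.3 and 30.1 CPM, and at 0.1 µg/kg 21.5, 26.2 and 41.8 CPM. These 4 groups overlapped, with the 1 highest library of each between 34.5 and 43.8 CPM. The libraries of 0.3 µg/kg held 15.1, 16.6 and 9.03 CPM, those of 1 µg/kg 9.89, 6.57 and 6.80 CPM, those of 3 µg/kg 1.37, 1.65 and 2.59 CPM, and those of 10 µg/kg 0.436, 0.759 and 1.89 CPM. Every library at 0.3 µg/kg or above was thus below every library of the lower doses and vehicle, and the pairs of 0.3 and 1 µg/kg and of 3 and 10 µg/kg overlapped. The means were 30.1 ± 5.78 CPM in vehicle, 13.6 ± 4.00 at 0.3, 7.75 ± 1.85 at 1, 1.87 ± 0.641 at 3 and 1.03 ± 0.762 CPM at 10 µg/kg (SD, n = 3). The highest dose rested on 6, 12 and 28 counts. Its slope from 0.01 to 1 µg/kg was -0.56 log2 units per dose step (SE 0.0834, edgeR adjusted p = 0.00146), with adjusted p from 0.00015 to 0.0093 when 1 of the 15 libraries was left out. Against 0.01 and 0.03 µg/kg the log2 fold change was -2.11 at 1 µg/kg (SE 0.263, edgeR adjusted p = 0.000618) and -1.37 at 0.3 µg/kg (SE 0.250, edgeR adjusted p = 0.0574), the second outside the threshold. This ID was chosen for its p in that trend.

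ENSRNOG00000002878, the member most abundant in vehicle, went down by less and in a different course. Each library from 0.03 µg/kg on was below each vehicle library, at 78.1% of the vehicle mean for 0.03 and 68.3% for 1 µg/kg. The mean reached 45.01% only at 3 µg/kg. This ID was named for its high vehicle mean, and the vehicle libraries also chose the members. Its levels against vehicle are therefore a description without a test. Its libraries held 779, 920 and 830 CPM in vehicle, 768, 679 and 798 CPM at 0.01, 512, 753 and 711 CPM at 0.03, 695, 728 and 602 CPM at 0.1, and 602, 684 and 690 CPM at 0.3 µg/kg. At 1 µg/kg they held 686, 532 and 509 CPM, inside the range of the lower doses except for 1 library. At 3 µg/kg they held 436, 334 and 369 CPM and at 10 µg/kg 255, 342 and 475 CPM. These 6 libraries were below all others, and the ranges of 3 and 10 µg/kg overlapped. The means were 843 ± 71.3 CPM in vehicle, 576 ± 96.1 at 1, 379 ± 51.9 at 3 and 357 ± 111 CPM at 10 µg/kg (SD, n = 3). No change was resolved from 0.01 to 1 µg/kg: the slope was -0.07 per dose step (SE 0.0383, edgeR adjusted p = 0.368), and the log2 fold change at 1 against 0.01 and 0.03 µg/kg was -0.24 (SE 0.162, edgeR adjusted p = 0.486).

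**Figure D4:**
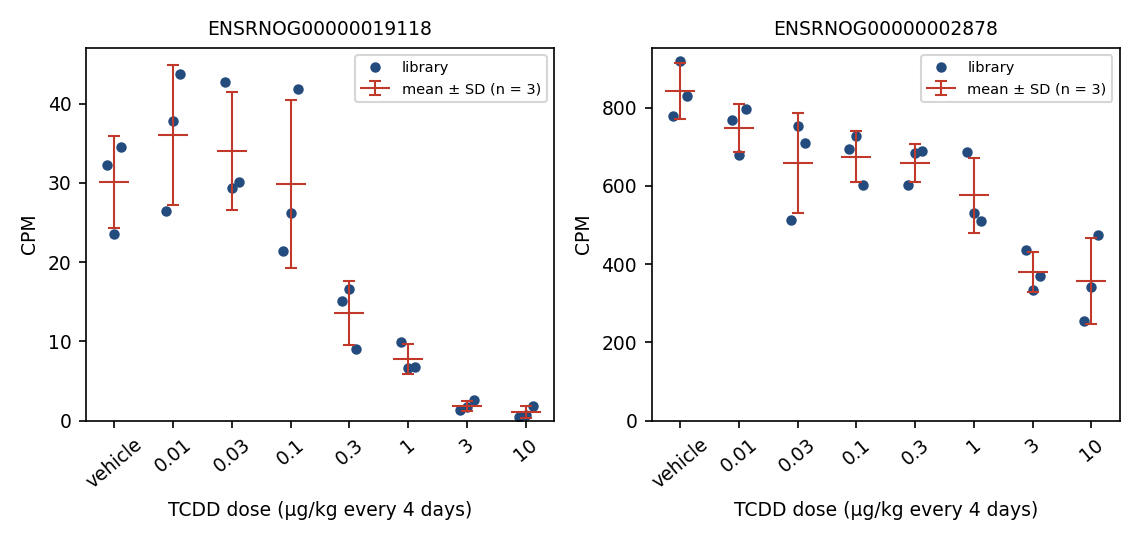
CPM (y axes, from 0) of ENSRNOG00000019118 (left) and ENSRNOG00000002878 (right) in each library (points), with group mean and SD (red, n = 3), by TCDD dose in µg/kg (x axes). The left ID is at 13.6 CPM at 0.3 µg/kg against 30.1 CPM in vehicle, while the right ID is at 659 CPM against 843 CPM there.

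From 3 to 10 µg/kg the members parted. The mean was lower at 10 µg/kg for 84 members and higher for 37, and the median member at 10 µg/kg was at 82.7% of its 3 µg/kg mean, against 109% over the 8004 IDs. All libraries at 10 µg/kg were below all at 3 µg/kg for 34 members (6.62% of the 8004 IDs) and above them for 2 (21.4% of the 8004 IDs). For 28 members the mean at 10 was at most 0.5 times that at 3 µg/kg, and for 2 it was at least 2 times it. Such changes were not counted over the 8004 IDs. Of the 8 group means the lowest was that at 10 µg/kg for 82 members and that at 3 µg/kg for 36. At most 25% of vehicle was reached by 34 members at 3, by 54 at 10 and by 27 at both doses. At most 10% was reached by 8 at 3 and by 22 at 10 µg/kg. The limit of 50% of vehicle at both doses bounds these differences, so they are given without a test.

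As a share of vehicle, members already low at 1 µg/kg were also lower at both higher doses. The 31 at most 50% of vehicle at 1 µg/kg had medians of 19.9% at 3 and 9.55% at 10 µg/kg, and the other 90 had medians of 38.1% and 34.5%. Not divided by vehicle, the mean at 10 as a share of that at 3 µg/kg had a median of 52.9% in the 31 and 87.9% in the 90. The mean was lower at 10 than at 3 µg/kg for 23 of the 31 and for 61 of the 90. The rule bounded the means at both doses and the split uses vehicle, so this too is a description without a test. The vehicle medians were similar, at 42.3 and 38.6 CPM. At the lowest dose the classes stood at 86.7% and 83.2% of vehicle. The values were 68.1% and 80.4% at 0.03, 64.3% and 82.7% at 0.1, and 54.4% and 76.0% at 0.3 µg/kg. The split at 1 µg/kg and all these shares of vehicle, also at 3 and 10 µg/kg, divide by the same vehicle mean. For given levels at the doses, a higher vehicle mean makes the share lower at every dose. The shares therefore cannot show whether the 31 fell earlier.

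**Figure D5:**
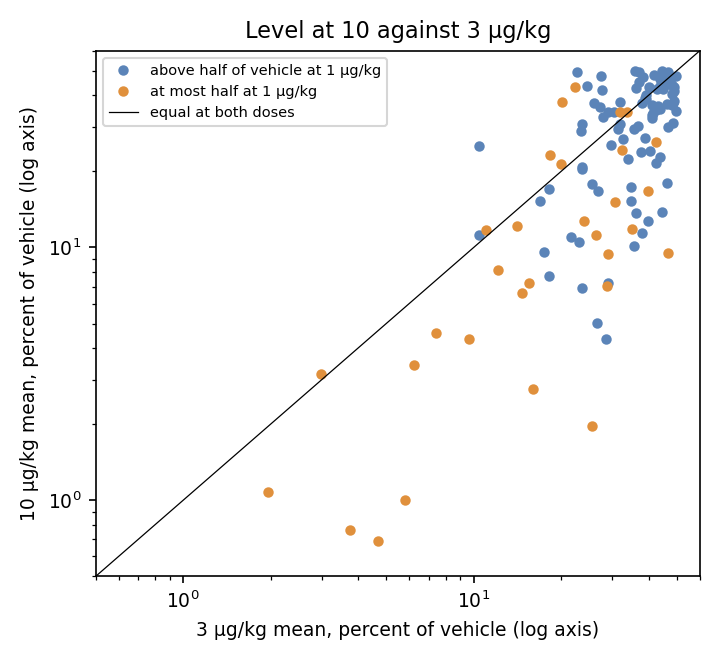
Mean at 10 µg/kg against mean at 3 µg/kg for each of the 121 IDs, both as a percent of vehicle on log axes. Orange points are the 31 IDs at most 50% of vehicle at 1 µg/kg, blue points the other 90, and the line marks equal levels. Of the 121 points, 84 lie below the line, and by choice of the IDs no point is above 50% on either axis.

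A few members approached the limit of detection. At 10 µg/kg, 3 members had at most 3 counts in each library, where 3 counts correspond to at most 0.218 CPM. The member lowest relative to vehicle, 1 of these 3, held 140, 64 and 42 counts in vehicle, 4, 7 and 1 at 3 µg/kg and 0, 1 and 1 at 10 µg/kg. The vehicle libraries behind such values differed widely. The next lowest of all members held 651, 1180 and 3622 counts in vehicle and 15, 33 and 3 at 10 µg/kg, and the third 108, 260 and 941 against 5, 8 and 3. In each of these lowest 3 a single vehicle library held over 0.5 of the group's counts, so the groups were separated but the size of the fall was poorly fixed.

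The nearest comparison set was 145 IDs of the same vehicle range that met the same conditions at 10 µg/kg but stood above 50% of vehicle at 3 µg/kg. Their median was 64.4% of vehicle at 3, 77.9% at 1, 93.8% at 0.3 and 102% at 0.01 µg/kg. The members stood at 59.1%, 71.5% and 85.0% at the lower 3 of these doses. In the 15 libraries outside the choice, 5 of the 145 fell in the trend over 0.01 to 1 µg/kg (3.45%), against 13 of 121 members (10.7%). At an unadjusted p below 0.05 the counts of negative slopes were 44 in both sets. Slopes below 0 made up 83.4% in the 145 IDs and 80.2% in the members, and log2 fold changes below 0 at 1 µg/kg were found for 127 of the 145 (87.6%) and 98 of the 121 (81.0%). At 1 µg/kg 8 of the 145 (5.52%) and 14 of the 121 (11.6%) were called lower. The difference between the sets was not tested.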

How the data were processed

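The authors deposited 1 table of raw counts for each library, with Ensembl IDs as rows. The submitters' processing notes name HTSeq 0.6.1 and TopHat 1.4.1, with cutadapt 1.4.1, FastQC 0.11.2, DESeq and SAMtools 0.1.2. Settings, genome build, annotation and strandedness are not given in the sources used here, so reads of overlapping, antisense or near-identical genes are uncertain for a single ID. The 5 HTSeq summary rows that name no gene (35.8% to 47.5% of a table) were left out. Replicates differed by more than sampling noise (chi-square 13.0 to 54.3 per degree of freedom).

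CPM used the sum of gene rows. The 15 libraries at 0.01 to 1 µg/kg were fitted in R 4.3.3 with edgeR 4.0.16 (filterByExpr with a minimum count of 10, leaving 12122 IDs; TMM factors from 0.924 to 1.07; glmQLFit, glmQLFTest; Benjamini-Hochberg threshold 0.05): a slope on dose rank, and group means for contrasts. SE is the log2 value divided by the square root of F. The fits were tested on simulated data. Members, lists and tests were chosen with earlier results of these data known. The rule for named members took the smallest trend p and the highest vehicle mean; gene lists and cell type markers could not be applied. Alternatives were other scaling, filters, DESeq2 1.42.0, a replicate block, all 24 libraries, log10 of dose, other limits of the choice, and leaving out each library.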

Additional observations from a re-analysis of the deposited data

How the results depend on the processing

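With limits of 0.4 and 0.6 times vehicle, 70 and 208 IDs were chosen in place of 121. Leaving out 1 of the 9 libraries gave 114 to 165, with 105 to 119 of the members among them, and TMM scaling gave 138, with 118. With 0.01 and 0.03 µg/kg as the reference in place of vehicle, the median level at 1 µg/kg was 73.3%, not 59.1%, and 23 members, not 31, were at most 50%. DESeq2 called 22 members and 208 IDs in all falling in the trend, and at 1 µg/kg 26 members of 169 IDs lower, against 13 of 66 and 14 of 51 by edgeR. In the simulated data more calls were false by DESeq2 than by edgeR. At 0.3 µg/kg DESeq2 called 4 members, and edgeR called 1 with no low-count filter or with all 24 libraries, against 0. Leaving out 1 of the 15 libraries gave 8 to 18 members and 14 to 107 IDs for the trend, 4 to 20 members and 8 to 264 IDs at 1 µg/kg, and 0 to 1 member at 0.3 µg/kg. The replicate block gave 17 members and 98 IDs for the trend and 18 members and 106 IDs at 1 µg/kg. Replicate numbers share no stated source. Of 30 same-number pairs from different groups, 17 had a correlation over 0.1 (range -0.20 to 0.41). The median was 0.12 for same-number pairs and -0.08 for pairs of different numbers, and 5 of 15 libraries correlated best with their own number. Apart from where a setting tests fewer libraries, the cause was not tested. RLE scaling, a filter of 1 CPM and log10 of dose moved no count by over 1.5 times, and no setting changed the direction or the call of either named ID in the trend or at 1 µg/kg; the 0.3 µg/kg contrast was not recomputed for single IDs. Depth limits the members with few counts at 10 µg/kg.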

Other observations

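Members varied more between rats of a group than other IDs did, also in the 5 dose groups that took no part in the choice. The median coefficient of variation of a member's CPM was 28.9% at 0.01, 22.5% at 0.03, 24.9% at 0.1, 28.5% at 0.3 and 26.6% at 1 µg/kg. For the other 7883 IDs of the same vehicle range it was 14.9%, 14.5%, 11.99%, 13.5% and 13.3%, although their vehicle levels were lower. It was above 50% for 18 to 26 members in each of these 5 groups. The highest value, 173%, is that of 3 libraries of which only 1 holds counts.

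In 2 of the 5 dose groups outside the choice, 1 library was the highest of its group for more members than for other IDs by over 10 percentage points. At 0.1 µg/kg replicate 3 was the highest for 74 of the 121 members (61.2%, against 48.4% of the other IDs), and at 0.3 µg/kg replicate 3 for 71 (58.7%, against 45.3%). In the other 3 groups the leading shares were near or below those of other IDs for 0.01 µg/kg replicate 3 (48.8% against 49.0%) and 0.03 µg/kg replicate 1 (41.3% against 47.3%), and 38.8% against 29.5% for 1 µg/kg replicate 3.

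The course over the lower doses was not steady for every member. Means fell at each step from vehicle to 10 µg/kg for 2 members, and at each step from 0.1 to 10 µg/kg for 37. The 0.3 µg/kg mean was above the 0.1 µg/kg mean for 41 members and above each of the 0.01, 0.03 and 0.1 µg/kg means for 21. Of these 21, 7 had been at most 50% of vehicle at 1 or more of the lower doses. In all, 19 members were at most 50% of vehicle at a dose below 1 µg/kg and above 50% at a higher dose below 3 µg/kg. These counts were made after the data were seen and were not tested. They cover the members only, so they do not show whether other IDs were steadier.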
